A study of Mus musculus with 6 samples.

Results

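The receptors for chemokines, interleukins and ligands of the TNF family were examined as 1 group of 74 genes out of 19938 genes on the array. Members were chosen by gene symbol alone: Ccr, Cxcr or Ackr with a number, Tnfrsf with a number, or Il with a number followed by r, without Il2ra and Il7r. The rule gave 20 chemokine receptor genes, 34 interleukin receptor genes and 20 TNF receptor genes. It also took a few genes whose products are soluble and do not signal, such as Il1rn, which encodes an antagonist of interleukin-1, Il22ra2, which encodes a soluble binding protein of interleukin-22, and Tnfrsf11b, which encodes the secreted decoy osteoprotegerin. Where a gene had several probe sets, the one with the highest 6-array mean was used.

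The cells were C57BL/6 pre-B cells transformed by BCR-ABL1, the fusion kinase of Philadelphia chromosome-positive acute lymphoblastic leukaemia. In all of them both Inpp5d alleles were flanked by loxP sites (Inpp5d fl/fl). Inpp5d encodes SHIP1, a lipid phosphatase that acts against PI3K signalling and docks on inhibitory receptors of B cells. Cells on 3 arrays carried PMIP-CRE-ERT2, a Cre recombinase that tamoxifen activates, and cells on 3 arrays carried PMIP-ERT2, the tamoxifen-binding domain without Cre. Both groups were given 4OH-Tamoxifen at 0.5 µM, and RNA of puromycin-resistant cells was taken after 2 days. No group had Cre without the floxed alleles, so an effect of Cre itself and an effect of Inpp5d deletion cannot be told apart. Separate cultures or clones behind the 3 arrays of a group are not named in the labels, and the spread that the p-values rest on may thus be technical.

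The signal of the targeted gene did not fall. Inpp5d had log2 values of 13.37, 13.34 and 13.34 on the arrays labelled CRE-ERT2, against 13.20, 13.21 and 13.17 on the ERT2 arrays, a difference of 0.16 ± 0.041 (SE) with a limma adjusted p of 0.0545. It passed in 5 of the alternative settings (adjusted p from 0.00364 to 0.0485), and the difference was 0.056 after centring. The sources used here do not say whether its probe set covers the floxed exons; a probe set outside them checks nothing. The groups are therefore called by what the labels say, and a positive difference means a higher signal on the arrays labelled CRE-ERT2. All 12 B lineage markers examined, among them Cd79a, Pax5 and Igll1, lay above the 25th percentile of genes; 1 was higher (Dntt), 1 lower (Rag2), and their mean log2 value was 12.30 to 12.37 on the arrays labelled CRE-ERT2 and 12.35 to 12.38 on the ERT2 arrays. Of 11 markers of T and NK cells 6 lay below that percentile, Cd3d and Cd3g among them, 1 was lower (Cd2) and 0 higher, with means of 7.37 to 7.49 and 7.34 to 7.41. Of the 5 tested, 4 differences were positive and 1 negative, with a median of 0.14. Their groups did not overlap for 3 (60.0%, against 38.5% of all genes tested), 2 above and 1 below. Of 11 myeloid markers 7 lay below the 25th percentile, Csf1r and Itgam among them, 1 was higher (Lyz2) and 0 lower, with means of 7.39 to 7.48 and 7.21 to 7.32. Of 5 erythroid and megakaryocyte markers 2 lay below it and none was called, with means of 7.66 to 7.82 and 7.63 to 7.66. Of 10 stromal and endothelial markers 1 lay below it and none was called, with means of 8.40 to 8.55 and 8.28 to 8.34. All 9 tested had a positive difference, with a median of 0.16. Their groups did not overlap for 5 (55.6%, against 38.5% of all genes tested), and the lowest limma adjusted p was 0.0627. The part of these markers in the receptor results was not tested.

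Chemokine receptors are G protein-coupled receptors that guide leukocytes along chemokine gradients, and atypical members bind chemokines without G protein signalling. Most interleukin receptors are assembled from a ligand-specific chain and a shared chain and signal through JAK kinases and STAT factors, whereas receptors of the IL-1 and IL-17 families recruit adaptor proteins. Receptors of the TNF family signal through TRAF adaptors or, where they carry a death domain, through caspase-activating complexes. In the B lineage, CXCR4 holds precursors in the bone marrow, and CXCR5, CCR7 and the BAFF receptor act in more mature B cells.

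Many of these receptors gave little signal in these cells. Of the 74 genes, 26 (35.1%) had a mean below the 25th percentile of all genes, a log2 value of 7.35, and were not tested. They were 12 of 20 chemokine receptor genes, 13 of 34 interleukin receptor genes and 1 of 20 TNF receptor genes, Tnfrsf11b. Among them were Ccr1, Ccr2 and Cxcr2, known for guiding myeloid cells, Cxcr6 and Ccr9, known from T cells, and the interleukin-12 and interleukin-23 receptor genes Il12rb2 and Il23r. The members just below the percentile were Ackr4, with a mean of 7.28 ± 0.14 (SD, n = 3) on the arrays labelled CRE-ERT2 and 7.25 ± 0.043 on the ERT2 arrays, and Tnfrsf11b, with 7.33 ± 0.10 and 7.16 ± 0.064. Just above it were Il5ra, with 7.47 ± 0.13 and 7.43 ± 0.024, and Tnfrsf1a, with 7.55 ± 0.059 and 7.42 ± 0.11. Probe sets differ in brightness for reasons of sequence, so these values rank no gene above another.

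Of the 48 receptor genes tested, 7 differed between the groups at an adjusted p under 0.05 (limma, two-sided, adjusted over all 14953 genes tested). Il4ra, Il21r, Il1r2, Cxcr5 and Tnfrsf22 were lower on the arrays labelled CRE-ERT2, Il15ra and Tnfrsf18 were higher, and 41 did not pass. The 7 genes are 14.6% of the receptors tested, against 7.62% of all genes tested (3.5% higher and 4.13% lower). That gap depended on the setting: with trend and robust estimation 14.6% of receptors and 14.4% of all genes were called, with array weights 27.1% and 26.7%, and after centring 12.5% and 20.2%. It remained after quantile normalization (16.7% and 6.65%) and loess (16.7% and 7.83%). The same held with the 50th percentile filter (24.1% and 15.7%) and without a filter (4.05% and 2.19%). The values of the groups did not overlap for 17 of the 48 receptor genes (35.4%), against 38.5% of all genes tested. The 7 changes were between 1.18-fold and 1.37-fold. By family, 1 of 8 chemokine receptors, 4 of 21 interleukin receptors and 2 of 19 TNF receptors were called. The count depended on the arrays used: it was 1 without CRE-ERT2 array 1 or ERT2 array 1 (0.91% and 0.776% of all genes called), 2 without ERT2 array 2 or 3 (1.30% and 2.32%), 3 without CRE-ERT2 array 2 (3.51%), and 13 (8 higher and 5 lower) without CRE-ERT2 array 3 (20.3%). Without the filter on dim genes it was 3, and Il21r, Il1r2, Cxcr5 and Il15ra lost their calls (adjusted p = 0.0731, 0.0651, 0.0800 and 0.0609). After centring of each array on its median, which shifted the median difference of all genes by -0.10, 0 receptors were higher and 6 lower, and 7.38% of all calls were higher in place of 45.9%.

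**Figure D1:**
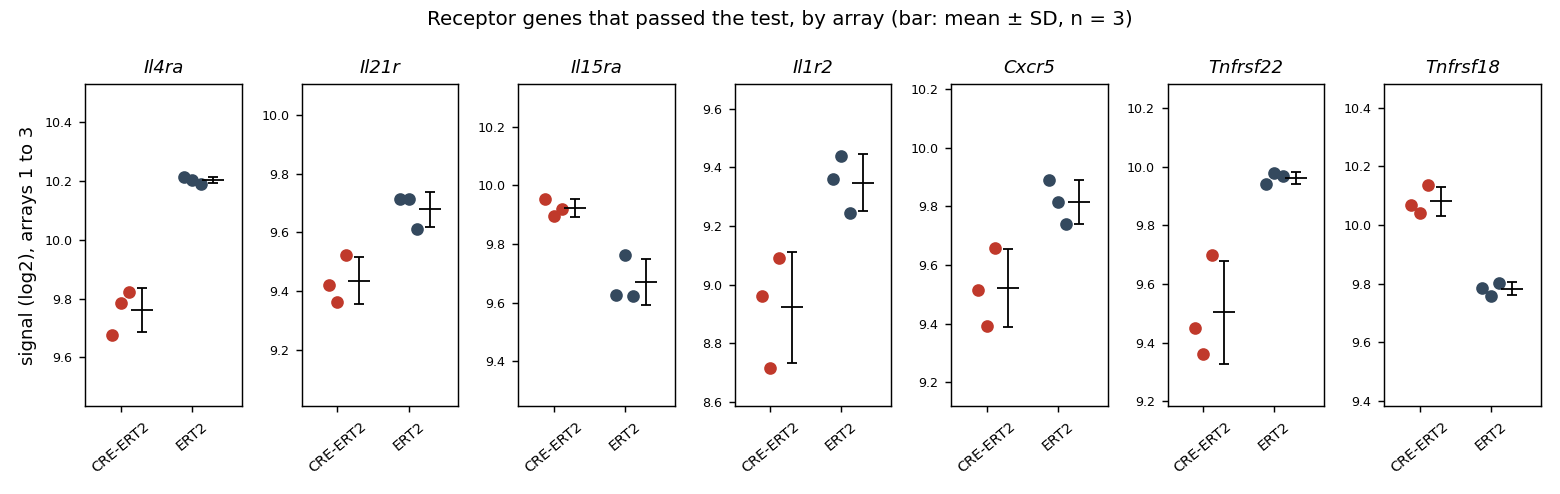
Log2 signal (y axis) of the 7 receptor genes that passed the test, by group (x axis). Points are arrays 1 to 3 from left to right and bars are means ± SD (n = 3); the y axes span ranges of equal length. The groups do not overlap in any of the 7 genes, and Il4ra on the ERT2 arrays varies least, between 10.19 and 10.21.

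Among receptors that pair with the common gamma chain, Il4ra fell. It encodes the ligand-binding chain for interleukin-4, which it also binds as part of the interleukin-13 receptor. The log2 values of Il4ra were 9.68, 9.79 and 9.82 on the arrays labelled CRE-ERT2, against 10.21, 10.21 and 10.19 on the ERT2 arrays. All 3 arrays labelled CRE-ERT2 lay below the ERT2 arrays by more than the spread within either group. The difference was -0.44 ± 0.051 (SE), 1.36-fold lower, with a 95% interval from -0.56 to -0.33 and an adjusted p of 0.00456. Il4ra passed in all 15 alternative settings, with differences from -0.54 to -0.40.

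Il21r, which encodes the ligand-specific chain for interleukin-21, also fell. Its values were 9.42, 9.36 and 9.52 on the arrays labelled CRE-ERT2, against 9.71, 9.71 and 9.61 on the ERT2 arrays, without overlap. The difference of -0.24 ± 0.057 (SE) had an adjusted p of 0.0413. Il21r passed without CRE-ERT2 array 3 and lost its call without any one of the other 5 arrays (adjusted p from 0.0606 to 0.166). In the RefSeq gene order (GRCm38.p6) Il21r follows Il4ra on chromosome 7, with 0 annotated genes starting between them.

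Il15ra, which encodes the chain that binds interleukin-15 and presents it to neighbouring cells, rose. Its values were 9.95, 9.89 and 9.92 on the arrays labelled CRE-ERT2, against 9.63, 9.76 and 9.62 on the ERT2 arrays. The groups did not overlap, and ERT2 array 2 lay nearest to the other group. Il15ra differed by 0.25 ± 0.053 (SE), 1.19-fold higher, with an adjusted p of 0.0329. It lost its call without CRE-ERT2 array 1 (0.111) or 2 (0.0516), without ERT2 array 1 (0.148) or 3 (0.0757), and after centring, where the difference was 0.15 (0.144). The remaining chains of this class were Il9r, with a difference of 0.0013 (95% interval from -0.14 to 0.14, not passing), and Il2rb, which was too dim to be tested, with 7.32 ± 0.024 (SD, n = 3) and 7.14 ± 0.13. Il2rg, the gene of the common gamma chain itself, was not among the genes read from the array. Il2ra, outside the symbol rule, had values of 13.10 ± 0.057 and 12.70 ± 0.061, a rise of 0.40 ± 0.052 (SE, adjusted p = 0.00711). Il2ra lost its call without ERT2 array 1 (0.0542) and with replicate number as a block (0.0506). Il13ra1, the partner gene of Il4ra for interleukin-13, and Il13ra2, a separate chain that binds interleukin-13, both lay below the 25th percentile.

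In the IL-1 and IL-18 family, Il1r2 fell, which encodes a decoy receptor that binds interleukin-1 without signalling. Its values were 8.96, 8.72 and 9.09 on the arrays labelled CRE-ERT2, against 9.36, 9.44 and 9.24 on the ERT2 arrays. The groups did not overlap, although the arrays labelled CRE-ERT2 spread widely, and array 3 lay nearest to the ERT2 arrays. The difference of -0.43 ± 0.095 (SE), 1.34-fold lower, had an adjusted p of 0.0376. Il1r2 passed without CRE-ERT2 array 3 (difference -0.51) and lost its call without any one of the other 5 arrays (adjusted p from 0.0516 to 0.144). Il1rap, the accessory chain of signalling IL-1 receptors, had a difference of -0.052 (95% interval from -0.18 to 0.081) and did not pass. Il18rap, the accessory chain for interleukin-18, had 7.83 ± 0.069 and 7.99 ± 0.033 (SD, n = 3), a difference of -0.16 ± 0.051 (SE) that did not pass (adjusted p = 0.0808). Its groups did not overlap, and it passed after quantile normalization, centring and loess. The other 5 members of this family lay below the 25th percentile. Il1r1, the gene of the signalling interleukin-1 receptor, was not among the genes read from the array.

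None of the 5 IL-17 receptor genes passed, although all 5 differences were positive, with a median of 0.13. Il17ra, the shared chain, had values of 11.82, 11.82 and 11.86 on the arrays labelled CRE-ERT2, against 11.80, 11.80 and 11.88 on the ERT2 arrays, and its 95% interval ran from -0.098 to 0.11. Il17re and Il17rc, which encode ligand-specific chains, had differences of 0.23 ± 0.067 (SE, adjusted p = 0.0651) and 0.15 ± 0.055 (adjusted p = 0.101). Both passed without CRE-ERT2 array 3. With genes divided by mean signal into 10 bins of equal size, the median difference of all genes in the same bin was 0.12 for Il17re and 0.088 for Il17rc.

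Receptors of the IL-6, IL-12 and IL-10 families and partners of the common beta chain gave 0 calls among 9 genes tested. Il12rb1, a chain shared by the interleukin-12 and interleukin-23 receptors, had 9.05 ± 0.022 and 8.93 ± 0.021 (SD, n = 3), a difference of 0.13 ± 0.042 (SE, adjusted p = 0.0845). Its groups did not overlap. Il10ra, the ligand-binding chain for interleukin-10, had 11.41 ± 0.056 and 11.35 ± 0.048 and a 95% interval from -0.058 to 0.17. Il10rb, its partner chain, had 11.24 ± 0.094 and 11.06 ± 0.14, a difference of 0.18 that did not pass (adjusted p = 0.157). Il22ra1, for interleukin-22, had the widest error among the genes tested, with a difference of 0.30 ± 0.11 (SE, adjusted p = 0.101). It was measured by 2 probe sets, and the second, dimmer one had a difference of 0.047. The 2 probe sets of Il17rd and the 3 of Il20rb had differences of the same sign within each gene. Il3ra, Il5ra, Il6ra and Il27ra had differences between -0.035 and 0.086 and did not pass.

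Of the chemokine receptors, Cxcr5 fell, the receptor for the chemokine CXCL13 that guides B cells into follicles. Cxcr5 had values of 9.52, 9.39 and 9.66 on the arrays labelled CRE-ERT2, against 9.89, 9.82 and 9.74 on the ERT2 arrays. The groups did not overlap, although CRE-ERT2 array 3 and ERT2 array 3 lay close together. The difference of -0.29 ± 0.073 (SE), 1.23-fold lower, had an adjusted p of 0.0487, just under the threshold. Cxcr5 passed without CRE-ERT2 array 3 (-0.36) and lost its call without any one of the other 5 arrays (adjusted p from 0.068 to 0.179).

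Cxcr4 did not pass. Its values were 11.89, 11.99 and 11.95 on the arrays labelled CRE-ERT2, against 11.94, 11.87 and 11.98 on the ERT2 arrays. The groups overlapped, and the 95% interval of the difference ran from -0.098 to 0.13. Ccr7, which guides lymphocytes to lymph nodes, had 10.07 ± 0.028 and 10.02 ± 0.017 (SD, n = 3), with an interval from -0.044 to 0.15. Cxcr1, Ccr6 and Ccr10 had differences of 0.20, 0.22 and 0.19, and none passed (adjusted p = 0.0653, 0.126 and 0.149). The median difference of all genes of like brightness was 0.11 for Cxcr1 and Ccr6 and 0.12 for Ccr10. Cxcr3 (0.084) and Ackr2 (0.12), a scavenger of inflammatory chemokines, did not pass either.

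In the TNF receptor family, Tnfrsf22 fell, a mouse gene for a decoy receptor that binds TRAIL without a death domain. Tnfrsf22 had values of 9.45, 9.36 and 9.70 on the arrays labelled CRE-ERT2, against 9.94, 9.98 and 9.97 on the ERT2 arrays. The ERT2 arrays lay close together, and CRE-ERT2 array 3 again lay nearest to them. The difference of -0.46 ± 0.081 (SE), 1.37-fold lower, had an adjusted p of 0.0212. Tnfrsf22 lost its call without CRE-ERT2 array 1 (0.0865) or ERT2 array 1, 2 or 3 (0.0954, 0.0871 and 0.0558). Its immediate neighbours in the RefSeq order on chromosome 7 are its relatives Tnfrsf26 and Tnfrsf23. Tnfrsf26 had 10.96 ± 0.044 and 10.98 ± 0.072 (SD, n = 3), with an interval from -0.14 to 0.098, and Tnfrsf23, a further decoy for TRAIL, had 7.63 ± 0.17 and 7.64 ± 0.061, with an interval from -0.21 to 0.18. Neither passed, and their difference from Tnfrsf22 was not tested. Tnfrsf10b, the mouse death receptor for TRAIL, had a difference of -0.033 (interval from -0.16 to 0.093).

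Tnfrsf18 rose, the gene of the costimulatory receptor GITR. Its values were 10.07, 10.04 and 10.13 on the arrays labelled CRE-ERT2, against 9.79, 9.76 and 9.80 on the ERT2 arrays. The groups lay apart by more than their own spread. Tnfrsf18 differed by 0.30 ± 0.046 (SE), 1.23-fold higher, with an adjusted p of 0.0134. It lost its call without CRE-ERT2 array 1 (0.0581), without ERT2 array 1 (0.0826) or 2 (0.062), and after centring (difference 0.20, adjusted p = 0.0562). Tnfrsf4, which encodes the related receptor OX40 and is the preceding coding gene on chromosome 4, had 8.81 ± 0.066 and 8.79 ± 0.075 (SD, n = 3) and did not pass (interval from -0.11 to 0.15). The costimulatory receptors Tnfrsf8, Tnfrsf9, Tnfrsf14 and Tnfrsf1b had differences between 0.0085 and 0.082 and did not pass.

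The receptors for the B cell survival factors BAFF and APRIL gave no call. Tnfrsf13c, the BAFF receptor gene, had values of 12.13, 12.10 and 11.95 on the arrays labelled CRE-ERT2, against 11.98, 12.01 and 12.02 on the ERT2 arrays, with overlap and an interval from -0.073 to 0.18. Tnfrsf13b, which encodes TACI, had 10.93 ± 0.064 and 10.85 ± 0.064 (SD, n = 3), and Tnfrsf17, which encodes BCMA of plasma cells, had 7.58 ± 0.081 and 7.43 ± 0.10; neither passed (adjusted p = 0.287 and 0.146). Among death-domain receptors, 0 of 4 passed: Tnfrsf25 had a difference of 0.22 ± 0.065 (SE, adjusted p = 0.0666), and Tnfrsf1a, Tnfrsf21 and Tnfrsf10b had 0.13, 0.058 and -0.033. Tnfrsf12a, the receptor for TWEAK, had 0.18 ± 0.074 and did not pass (adjusted p = 0.130).

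**Figure D2:**
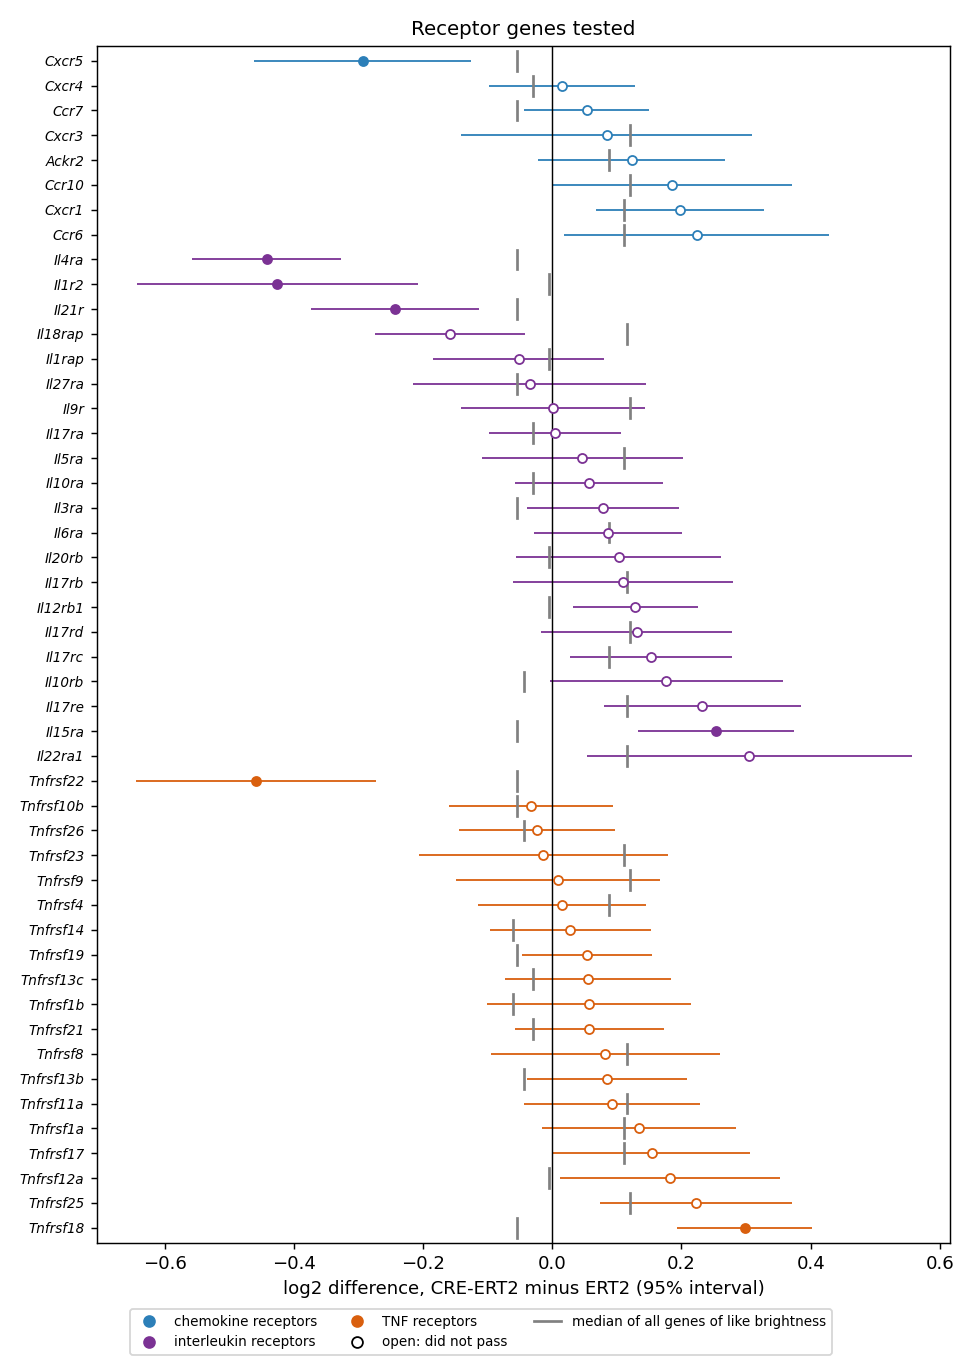
Log2 difference, CRE-ERT2 minus ERT2 (x axis), of the 48 receptor genes tested (y axis), with 95% intervals from limma and colour by family. Filled points passed the test, and grey ticks give the median difference of all genes in the same bin of brightness. The 5 filled points to the left of 0 are Cxcr5, Il4ra, Il1r2, Il21r and Tnfrsf22, and the 2 to the right are Il15ra and Tnfrsf18.

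The small positive differences of dim receptors were shared with other genes of like brightness. Of the 48 receptor genes tested, 37 had a positive and 11 a negative difference, with a median of 0.068, against 56.6% positive and a median of 0.026 for all genes tested. Among 19 receptor genes below the 50th percentile of brightness, 17 were positive with a median of 0.12, and all genes tested in that range also had a median of 0.12. Among 29 brighter receptor genes, 20 were positive with a median of 0.054, against -0.026 for all genes there. Set against the median of its own bin of brightness, the difference was higher in 31 receptor genes and lower in 17. After centring, 18 were positive and 30 negative, so no direction is given for the receptors as a whole. The 7 called genes lay in the fifth or the sixth bin, whose median differences were -0.0055 and -0.054.

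**Figure D3:**
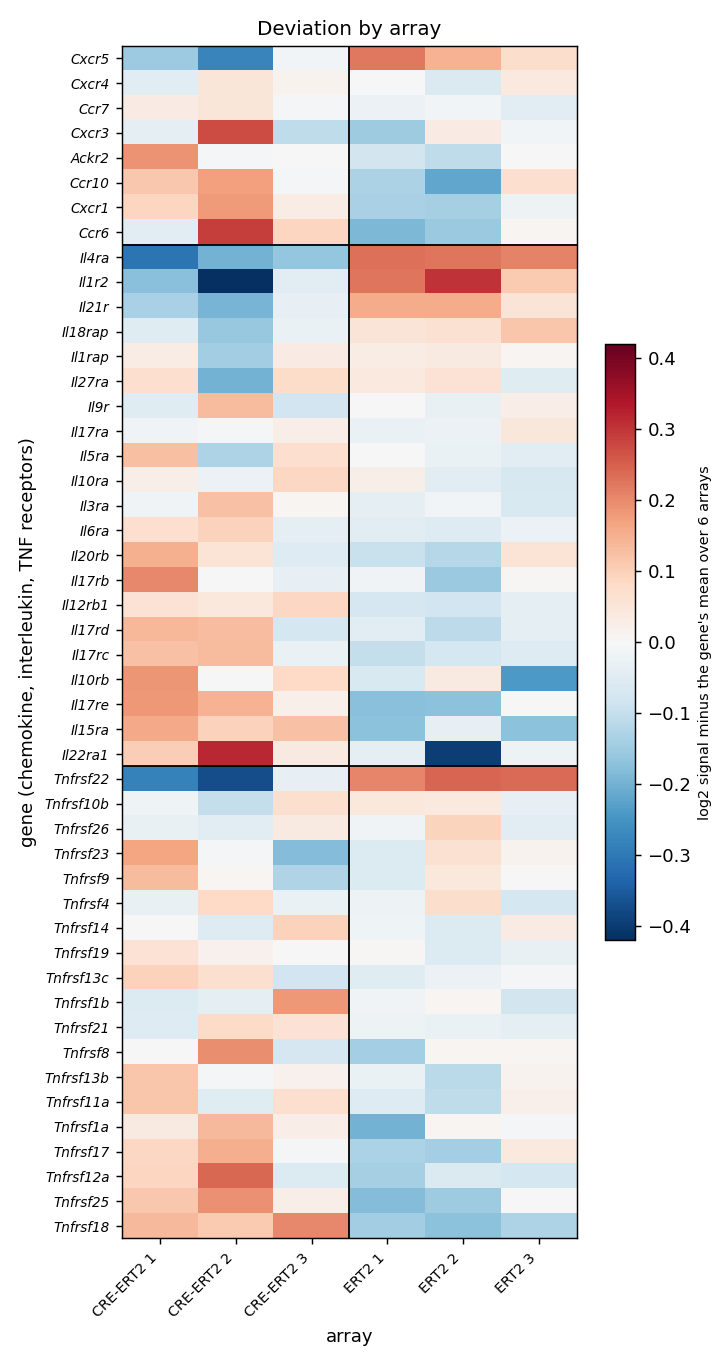
Log2 signal on each array (x axis) minus the mean of that gene over 6 arrays, for the 48 receptor genes tested (y axis, chemokine, interleukin and TNF receptors from top to bottom). Red is above and blue below the mean of the gene. The 7 called genes change colour at the line between the groups, and CRE-ERT2 array 3 is the palest of its group for Tnfrsf22, Il1r2, Il21r, Cxcr5 and Il4ra.

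The array labelled CRE-ERT2 3 stood nearest to the ERT2 group. Across genes, which are not independent replicates, its Pearson's r with ERT2 arrays 1 and 3 was 0.998, as was its r with CRE-ERT2 array 1, while CRE-ERT2 array 2 had 0.995 and 0.996 with those ERT2 arrays. It was the array of its group closest to the ERT2 mean for 27 of 48 receptor genes and for 56.0% of all genes tested.

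The sequences just upstream of the called genes are printed because Il4ra and Il21r are adjacent and fell together, and because they can be set beside the genes that fell or rose elsewhere. RefSeq promoter windows were matched for 5 of the 7 genes by gene ID. Each line gives the 250 bases before the annotated start, 5′ to 3′ on the strand of the gene (GRCm38.p6). Capitals mark matches on either strand to TTCNNNGAA (STAT), GGG and CC with any 5 bases between them (NF-kB), GTAAACA (FOXO), TGANTCA (AP-1) or GAGGAA (PU.1). For Il15ra the more upstream of its 2 starts is shown.
Il4ra, chr7:125552021-125552270 (+): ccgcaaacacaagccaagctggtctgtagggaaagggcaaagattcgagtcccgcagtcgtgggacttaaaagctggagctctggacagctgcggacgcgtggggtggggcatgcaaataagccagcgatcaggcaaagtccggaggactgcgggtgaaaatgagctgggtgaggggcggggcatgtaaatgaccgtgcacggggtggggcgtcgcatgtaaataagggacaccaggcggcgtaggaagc
Il21r, chr7:125603179-125603428 (+): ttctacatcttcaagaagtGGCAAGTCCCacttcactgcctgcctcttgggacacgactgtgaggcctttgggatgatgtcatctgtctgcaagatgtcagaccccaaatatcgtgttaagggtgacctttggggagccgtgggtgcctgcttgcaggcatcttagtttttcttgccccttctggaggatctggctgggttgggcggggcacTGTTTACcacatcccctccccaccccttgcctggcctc
Il1r2, chr1:40085843-40086092 (+): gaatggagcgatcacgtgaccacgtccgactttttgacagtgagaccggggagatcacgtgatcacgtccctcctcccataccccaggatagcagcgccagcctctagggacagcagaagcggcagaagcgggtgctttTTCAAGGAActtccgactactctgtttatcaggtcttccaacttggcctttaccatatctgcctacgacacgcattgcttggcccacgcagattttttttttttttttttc
Tnfrsf18, chr4:156026072-156026321 (+): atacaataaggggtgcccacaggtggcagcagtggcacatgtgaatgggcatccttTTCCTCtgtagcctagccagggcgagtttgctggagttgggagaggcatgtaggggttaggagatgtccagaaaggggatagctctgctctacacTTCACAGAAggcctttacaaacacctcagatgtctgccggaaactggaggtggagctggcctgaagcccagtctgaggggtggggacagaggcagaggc
Il15ra, chr2:11705043-11705292 (+): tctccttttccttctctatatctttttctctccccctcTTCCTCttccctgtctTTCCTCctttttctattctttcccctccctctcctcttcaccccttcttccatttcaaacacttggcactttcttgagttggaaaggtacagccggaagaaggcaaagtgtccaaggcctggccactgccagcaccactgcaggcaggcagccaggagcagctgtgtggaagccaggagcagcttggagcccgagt
Il4ra held 0 of the 5 motifs, while Il21r held a FOXO match at position -38 from the start and an NF-kB match at -231. A STAT match lay at -111 in Il1r2 and at -99 in Tnfrsf18. PU.1 matches were in Tnfrsf18 and in Il15ra. Of 32851 windows of the same length in the table, 7.02% held the STAT letters, 45.8% the NF-kB letters, 3.17% the FOXO letters, 6.75% the AP-1 letters and 23.3% the PU.1 letters. The window of the second Il15ra start, not printed, held no PU.1 match but an NF-kB match at -102 and an AP-1 match at -30. No motif was in all 3 printed genes that fell. These are letter matches in a few windows, and no binding was measured.

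Receptor chains outside the symbol rule held the largest change of any receptor examined. Lifr, which encodes a receptor chain for leukaemia inhibitory factor, had values of 8.03 ± 0.11 on the arrays labelled CRE-ERT2 and 8.92 ± 0.15 on the ERT2 arrays (SD, n = 3). It fell by 0.89 ± 0.086 (SE) on the log2 scale, 1.86-fold lower, with an adjusted p of 0.00225, and passed in every alternative setting that tested it; the 50th percentile filter left it out. The test called Il2ra and Ifnar1 higher and Lifr lower among 23 such genes (13.0%, against 7.62% of all genes). The other 20 missed the threshold, and the median difference over the 23 was 0.059. Ifnar1, a chain of the type I interferon receptor, rose by 0.18 ± 0.044 (adjusted p = 0.0440) and lost its call without any one array other than CRE-ERT2 array 3 (adjusted p from 0.0707 to 0.172), and after centring (0.434). Ifnar1 also lost it without the filter on dim genes (0.0786) and with replicate number as a block (0.129). Il7r, the receptor chain on which mouse pre-B cells depend, had 12.76 ± 0.021 and 12.80 ± 0.014 and did not pass (interval from -0.13 to 0.057).

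In the JAK-STAT relay the test called 4 genes higher and 1 lower out of 23 (21.7%, against 7.62% of all genes), and the median difference was 0.0035. The higher genes were Socs1, Socs3 and Cish, feedback inhibitors of cytokine receptors, and Stat2, a factor of interferon signalling. Socs1 rose by 0.31 ± 0.053 (SE, adjusted p = 0.0203), Socs3 by 0.25 ± 0.053 (0.0333), Cish by 0.23 ± 0.051 (0.0350) and Stat2 by 0.23 ± 0.046 (0.0310). Ptpn6, the phosphatase gene that opposes JAK signalling, fell by 0.22 ± 0.048 (0.0375). Socs3 also missed the threshold with the mean of its probe sets (0.0519) and Ptpn6 after loess (0.0547). After centring, Socs1, Socs3, Cish and Stat2 lost their calls (adjusted p from 0.0597 to 0.203). Each of these 5 genes also lost its call without CRE-ERT2 array 1 and without ERT2 array 1 or 3 (adjusted p from 0.0555 to 0.162), all but Socs1 without ERT2 array 2, and Socs3, Cish and Ptpn6 without CRE-ERT2 array 2 (adjusted p from 0.0583 to 0.106 in those). Stat6, which carries the interleukin-4 signal, had 11.44 ± 0.039 and 11.43 ± 0.052 (interval from -0.11 to 0.11) and Jak1 had 12.91 ± 0.029 and 12.85 ± 0.064 (SD, n = 3); neither passed.

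Of all 14953 genes tested 7.62% passed, and 4993 had an unadjusted p under 0.05. No adaptor gene of the TNF receptors passed among 18 tested, and none of the TIR and IL-17 receptor adaptors among 9 (at an unadjusted p under 0.05, 2 and 1 did). The smallest p-values were those of Tnfaip3, a brake on NF-kB (difference 0.22, adjusted p = 0.0690), Cyld, a deubiquitinase gene (-0.15, 0.111), Ecsit (-0.25, 0.0574) and Irak2 (0.11, 0.191). Of 17 genes of G proteins, arrestins and regulators that act behind chemokine receptors, 1 was lower (5.88%), 0 higher and 16 did not pass. This was Rgs18, which encodes an accelerator of G protein inactivation, with 10.30 ± 0.17 on the arrays labelled CRE-ERT2 and 11.17 ± 0.074 on the ERT2 arrays (SD, n = 3). Rgs18 fell by 0.87 ± 0.086 (SE) on the log2 scale (adjusted p = 0.00231) and passed in all 15 alternative settings, whereas Rgs16 had 0.14 and did not pass (0.0883).

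Among ligand genes the shares called were 0 of 23 chemokines, 1 of 11 TNF ligands (9.09%) and 2 of 25 interleukins (8.0%), against 7.62% of all genes. At an unadjusted p under 0.05 there were 3 chemokines, 5 TNF ligands and 14 interleukins, against 4993 of all 14953 genes, and the groups did not overlap for 56.0% of the interleukins, against 38.5% of all genes. No chemokine gene passed, the smallest p-values being those of Cxcl9 (0.19, adjusted p = 0.0605) and Cxcl14 (0.20, 0.0639). Of 11 genes for ligands of the TNF family, 1 was higher, Tnfsf4, which encodes the ligand of OX40, with 8.05 ± 0.086 and 7.78 ± 0.069 (SD, n = 3) and a rise of 0.27 ± 0.060 (SE, adjusted p = 0.0369). Tnfsf13b, the BAFF gene, had 0.20 and did not pass (0.0808). Of 25 interleukin and related cytokine genes, 2 were higher, Il34 (0.31 ± 0.062, adjusted p = 0.0287) and Ebi3 (0.25 ± 0.053, 0.0348), 0 were lower and 23 did not pass. All 3 ligand genes called were dim, their calls ended after quantile normalization (adjusted p from 0.0597 to 0.239), and each lost its call without CRE-ERT2 array 1 or any one ERT2 array (adjusted p from 0.0558 to 0.153), Il34 and Ebi3 also without CRE-ERT2 array 2 (0.0564 and 0.0714). The median differences of the chemokine and interleukin genes tested were 0.12 and 0.14, near those of all dim genes. The 11 TNF ligand genes tested had a median of 0.12 without a common direction. Of these, 6 differences were positive and 5 negative, from -0.18 to 0.27.

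**Figure D4:**
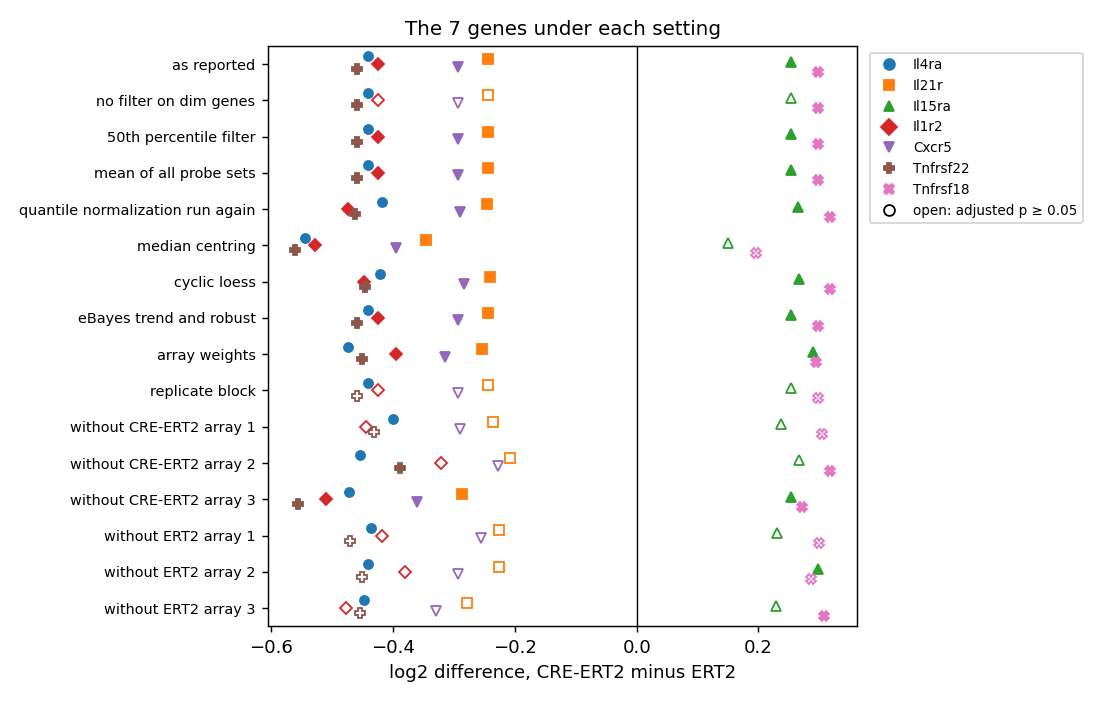
Log2 difference, CRE-ERT2 minus ERT2 (x axis), of the 7 called receptor genes as reported and under 15 alternative settings (y axis). Filled symbols passed at an adjusted p under 0.05 and open symbols did not. Il4ra is filled in every row, no gene crosses 0, and most open symbols lie in the rows with 1 array left out or with the replicate block.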

How the data were processed

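The data are 6 Affymetrix mouse arrays, 3 labelled CRE-ERT2 and 3 labelled ERT2; titles gave groups and replicate numbers. The deposited values are log2 signals of 35556 probe sets; per the submitters' processing notes, RMA and Partek 6.5 were used, with no role or settings given. The sources used here name no genome build. An annotation table named 21789 probe sets with 1 gene symbol, 1621 with several (not used) and 12146 with none; 21698 matched RefSeq by Entrez ID, and 0 symbols changed.

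Each gene was read from its probe set with the highest mean; 3 receptor genes had several. Genes with a mean below the 25th percentile (4985 of 19938) were left out. Differences were tested in R 4.3.3 with limma 3.58.1 (functions lmFit and eBayes, 4.31 prior degrees of freedom, no covariate), two-sided, as CRE-ERT2 minus ERT2, with Benjamini-Hochberg adjustment over 14953 genes and a threshold of 0.05. Arrays have no read depth; precision is limited by having 3 of them in each group. On data simulated for this comparison over 14953 genes, 100 genes were changed by 0.3 and 100 by 0.5 on the log2 scale. Of these, 43 and 71 were recovered, with 7 false calls. The simulated noise was independent for each gene and array, without deviations that the genes of a real array may share. The 7 false calls are thus not an error rate for the real arrays. Recovery with as many changed genes as the 1140 called on the arrays was not tested.

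Named genes were Inpp5d; the receptors that passed, the 10 brightest, the 8 with the smallest p among the others, 2 on each side of the 25th percentile and a fixed set; and, from each list of pathway genes, those that passed and the 2 with the smallest p. Further genes were named after their values were seen. The receptors and lists were chosen with earlier results of these data known. Alternatives were other filters, the mean of probe sets, quantile normalization, centring, cyclic loess, a trended, robust eBayes step, weighting of arrays, blocking on replicate number, leaving out 1 array at a time and a threshold of 0.01. Deviations of same-numbered arrays from their group means correlated at 0.069, -0.17 and -0.40. With 3 arrays per group these values are tied to each other and cannot show whether the numbers pair samples. Python 3.11.15 with pandas 2.3.3 made the tables, and matplotlib 3.10.9 drew the figures.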

Additional observations from a re-analysis of the deposited data

How the results depend on the processing

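The 7 called receptor genes kept their direction in all 15 alternative settings. The count of lower receptors, 5 as reported, was 2 without the filter on dim genes, 1 with the replicate block and 1 at an adjusted p under 0.01, and it ranged from 1 to 5 with 1 array left out. The count of higher receptors, 2 as reported, was 1 without the filter, 0 after centring, 8 with array weights, 0 with the replicate block and 0 at an adjusted p under 0.01, and it ranged from 0 to 8 with 1 array left out. No share of all genes at an adjusted p under 0.01 is given here, so the receptor counts at that threshold cannot be set against it. Fits with 1 array left out or with the block have fewer residual degrees of freedom, and those without the filter adjust over 19938 genes. Whether the replicate numbers pair the samples is not known. With them as a block 147 genes in all were called in place of 1140, and 1 receptor, Il4ra. All calls over the 14953 genes numbered 116 to 3042 with 1 array left out, 3993 with array weights, 3020 after centring and 2147 with trend and robust estimation. Over other sets of genes they numbered 437 of 19938 without the filter on dim genes and 1563 of 9969 with the 50th percentile filter. Signs turned in genes that did not pass. After centring, the difference was -0.047 for Tnfrsf13c, -0.087 for Cxcr4, -0.098 for Il17ra, -0.045 for Tnfrsf21, -0.046 for Il10ra, -0.017 for Tnfrsf13b, -0.046 for Tnfrsf1b, -0.074 for Tnfrsf14, -0.056 for Il5ra and -0.049 for Ccr7. Cxcr4 was at -0.011 with array weights. After quantile normalization and loess, Tnfrsf26 was at 0.016 and 0.012, and Il5ra at -0.057 and -0.064. With 1 array left out, differences ranged from -0.012 to 0.042 for Cxcr4, -0.0088 to 0.029 for Il17ra, -0.051 to 0.018 for Tnfrsf26, -0.020 to 0.099 for Tnfrsf1b, -0.014 to 0.062 for Tnfrsf14 and -0.0051 to 0.12 for Il5ra. The cause of these changes was not tested. Signals near background, as for the 26 dim receptors, limit what could be seen.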

Other observations

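Ligand genes of the called receptors were chosen after their values were seen. The genes for CXCL13, interleukin-15, interleukin-21 and the GITR ligand (Cxcl13, Il15, Il21 and Tnfsf18) lay below the 25th percentile and were not tested. Il4 had a log2 value of 7.75 ± 0.045 on the arrays labelled CRE-ERT2 and 7.65 ± 0.11 on the ERT2 arrays (SD, n = 3), and Il1b had 7.74 ± 0.11 and 7.73 ± 0.019; neither passed (limma adjusted p = 0.283 and 0.896). Tnfsf10, the gene of TRAIL, had 9.53 ± 0.15 and 9.34 ± 0.082, a difference of 0.19 that did not pass (0.134). The TNF family receptors Fas (difference 0.29, adjusted p = 0.0772) and Cd40 (0.19, 0.0699) lie outside the symbol rule and did not pass, although their groups did not overlap.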
